A study of Mus musculus with 12 samples.

Results

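The beta thymosins are 6 genes in the expression table of 12 orthotopic 4T1 breast tumors: Tmsb15a, Tmsb15b1, Tmsb15b2, Tmsb15l, Tmsb4x and Tmsb10, out of 55401 genes listed. They were chosen by symbol, and the choice was made with the values in view, because Tmsb15a was the single gene called lower in IL-10-Fc than in control tumors. All 6 genes were found, and 5 of them passed the filter on low values (at least 1 TPM in at least 3 libraries), while Tmsb15l did not. Cells of 4T1, a cultured line from a mammary carcinoma of a Balb/c mouse, were injected into Balb/c mice that were several weeks old when bought. Each group held 3 tumors with 1 library each, and tumors are named by the replicate numbers of the sample titles. The control IgG group received an isotype control protein (labelled IgG1-Fc). The IL-10-Fc group received a recombinant fusion of the cytokine interleukin-10 with an Fc part, and the aCSF1R group an antibody that binds CSF1R, the growth factor receptor on which most macrophages depend. The BF10 group received that antibody with human interleukin-10 fused to it. All groups began treatment at a tumor volume of 100 mm3, and the labels give 6 doses, while the study's methods give fewer, so the number of doses is uncertain. A tumor of 1 cell line is a model of that line only, and every library mixes carcinoma and host cells.

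Beta thymosins are short, largely unfolded proteins that bind actin monomers one to one and keep them from joining filaments. Thymosin beta 4, encoded by Tmsb4x, is the main such buffer of monomeric actin in many cells, among them leukocytes and platelets. Thymosin beta 10, encoded by Tmsb10, shares this activity and is common in growing tissue and in carcinomas. The Tmsb15 genes encode close relatives first described in motile prostate cancer cells and in neural tissue.

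Levels are given as TPM, that is the deposited FPKM of a gene rescaled so that each library sums to 1000000, which allows levels of genes of different length to be compared. Estimated from the step size of low FPKM values, depth was 30900000 to 36000000 reads per library, with 48.5% to 58.3% of low values falling within 0.1 of a whole read, against medians of 16.4% to 18.0% at other depths. In addition, 5 libraries had deposited FPKM sums above 700000 (control 4 and 7, IL-10-Fc 7, aCSF1R 8 and BF10 6, called higher-sum), and 7 had sums below it (called lower-sum), a split that cut across the treatments. Since 2 of 3 control tumors but 1 of 3 tumors in each treated group were higher-sum, results that follow the sets are given with and without a term for the set. The median tested gene lay above control by 0.24 in aCSF1R, 0.35 in IL-10-Fc and 0.32 in BF10 on the log2 scale, and by 0.0068, 0.10 and 0.068 with the set term. The carcinoma markers Epcam (31.9 to 89.5 TPM) and Krt8 (239.3 to 1090 TPM) were present in all 12 libraries.

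The Tmsb15 genes are related in sequence to different degrees, and the coding sequences are shown because reads of near-identical copies could be assigned to either. They were read without the stop codon from GENCODE vM21 transcripts on GRCm38, 5′ to 3′, and capitals mark the bases that differ from Tmsb15a in a pairwise alignment or stand opposite a gap.
Tmsb15a: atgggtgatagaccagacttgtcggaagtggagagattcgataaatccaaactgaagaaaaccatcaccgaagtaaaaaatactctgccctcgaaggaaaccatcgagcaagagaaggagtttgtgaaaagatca
Tmsb15b1: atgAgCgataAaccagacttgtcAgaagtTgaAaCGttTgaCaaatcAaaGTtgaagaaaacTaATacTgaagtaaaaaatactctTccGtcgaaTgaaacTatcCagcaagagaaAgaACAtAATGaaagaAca
Tmsb15b2: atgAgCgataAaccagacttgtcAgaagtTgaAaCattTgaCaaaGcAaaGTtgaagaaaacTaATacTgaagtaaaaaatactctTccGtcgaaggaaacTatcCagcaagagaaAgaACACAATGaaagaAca
Tmsb4x: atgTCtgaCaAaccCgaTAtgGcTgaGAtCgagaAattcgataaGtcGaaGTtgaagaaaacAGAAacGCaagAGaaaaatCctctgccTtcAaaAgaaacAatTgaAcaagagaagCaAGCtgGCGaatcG
Tmsb10: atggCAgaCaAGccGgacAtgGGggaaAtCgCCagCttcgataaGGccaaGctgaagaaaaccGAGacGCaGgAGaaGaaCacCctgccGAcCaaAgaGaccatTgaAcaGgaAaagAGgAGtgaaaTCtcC
Tmsb15a differed from Tmsb15b1 at 31 of 135 coding bases (77% identity) and from Tmsb15b2 also at 31, although the protein length of 45 codons is the same. Tmsb15b1 and Tmsb15b2 differed from each other at 4 bases (97% identity). The coding sequence of Tmsb15l, of 240 bases, began with the first 100 bases of that of Tmsb15b1 and ended with all 135 of that of Tmsb15b2. Tmsb4x and Tmsb10, of 44 codons each, were 69.7% identical to each other and 68.1% and 65.2% identical to Tmsb15a.

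These differences set which genes the sequencing could tell apart. Of the stretches of 75 bases in the 2 annotated Tmsb15a transcripts, a length equal to the reads, 0% occurred in any other annotated transcript. The same held for the 3 Tmsb4x transcripts. In contrast, Tmsb15b1 shared 49.6% of its stretches with Tmsb15b2 or Tmsb15l, the longer Tmsb15b2 transcript 66.2%, its shorter one 100%, and Tmsb15l 62.7%, so the values of these 3 genes depend on how reads were divided among them. Tmsb10 transcripts shared 9.75% to 46.6% of stretches with Gm3788 and Gm9844, which are not members. Only exact matches within annotated transcripts were counted.

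In position, 5 of the 6 genes lie on the X chromosome and all 6 on the minus strand (coordinates on GRCm38). Tmsb15a (ENSMUSG00000060726) spans chrX:135718667-135725261 with 5 exon blocks. Tmsb15b1 (ENSMUSG00000089768, chrX:136974022-136976874), Tmsb15b2 (ENSMUSG00000089996, chrX:136955265-136975497) and Tmsb15l (ENSMUSG00000072955, chrX:136954988-136976869) overlap one another, and Tmsb15l reaches from beyond the end of Tmsb15b2 to 5 bases short of the start of Tmsb15b1. Tmsb4x (ENSMUSG00000049775) lies at chrX:167207093-167209315, and Tmsb10 (ENSMUSG00000079523) at chr6:72957347-72958748.

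Tmsb15a was low everywhere and lower in the treated tumors. In the control tumors 4, 5 and 7 its level was 4.83, 3.13 and 3.33 TPM. In IL-10-Fc tumors 2, 4 and 7 it was listed at 0, 0 and 0.166 TPM. In aCSF1R tumors 4, 6 and 8 it was 0.406, 0.640 and 1.05 TPM, and in BF10 tumors 3, 6 and 7 it was 0.422, 0.301 and 0 TPM. All 3 control values therefore lay above all 9 treated values, and the lowest control tumor belonged to the lower-sum set. The difference of the means of log2(TPM + 1) against control was -2.16 in IL-10-Fc, -1.94 in BF10 and -1.49 in aCSF1R (SE 0.23 each, limma, n = 3 tumors a group). These differences are given without a test because they led to the choice of the gene. For reference, groups that do not overlap, with control higher, were found in 1.78% of the 15504 tested genes for IL-10-Fc, 1.17% for BF10 and 3.68% for aCSF1R, and the share past the threshold (adjusted p below 0.05 and at least 1.5-fold) was 0.00645% in IL-10-Fc, 0% in BF10 and 0.568% in aCSF1R. The IL-10-Fc share is 1 gene, Tmsb15a, and nothing is read from it because it made the choice. It was 0 genes without control 4, 5 or 7 or IL-10-Fc 2 or 4, with a pseudocount of 0.1, with unscaled FPKM and with the replicate number as a block. Without IL-10-Fc 7, and with median of ratios scaling, 1 gene was counted. That gene was higher than in control and so was not Tmsb15a. In each of the settings with the library set as a term, with no filter and without aCSF1R 8, 1 gene was counted as lower. Nothing is read from these counts either.

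**Figure D1:**
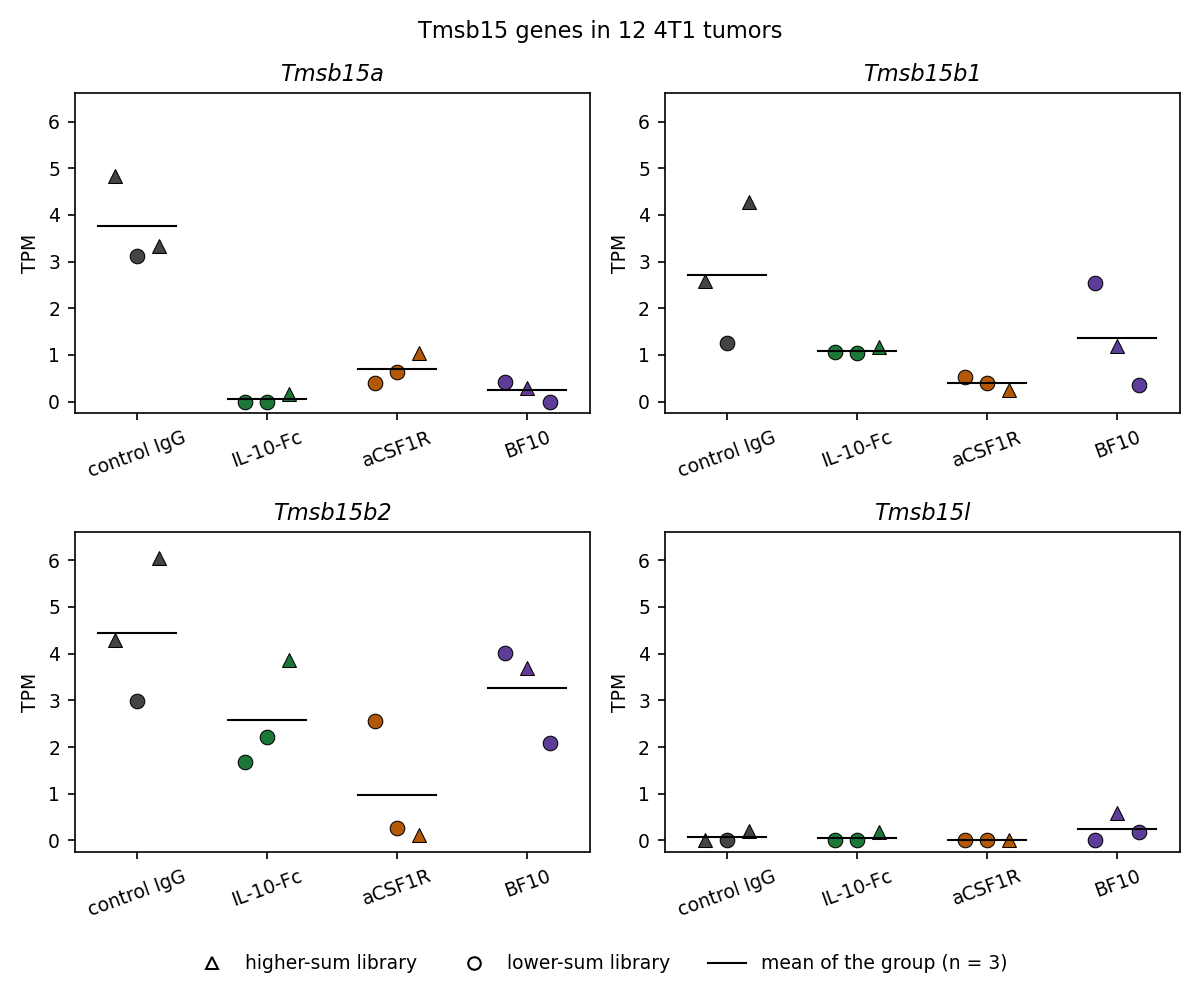
TPM of the 4 Tmsb15 genes in each of the 12 libraries, by group, with triangles for higher-sum and circles for lower-sum libraries and a line at the mean of the 3 libraries. The control values of Tmsb15a, 3.13 to 4.83 TPM, lie above every treated value, while the groups of Tmsb15b1 and Tmsb15b2 overlap more and Tmsb15l is near 0 throughout.

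Few reads stood behind these values. If all Tmsb15a reads came from its 299-base transcript, the control libraries held an estimated 13.7 to 32.4 reads and the treated libraries 0 to 6.82, and with the 544-base transcript 28.6 to 67.8 and 0 to 14.2. Summed over the group, 69 estimated reads in control (299-base transcript) stood against 1 in IL-10-Fc, 4 in BF10 and 12 in aCSF1R. In the libraries listed at 0, the limit of 3 reads corresponds to 0.609 and 0.597 TPM in IL-10-Fc 2 and 4 and to 0.574 TPM in BF10 7 with the 299-base transcript, and to 0.292, 0.285 and 0.275 TPM with the 544-base one. A 0 there is compatible with levels up to these limits, which cover counting error only, and levels from 1 or 2 reads were listed in other libraries (0.98 reads in IL-10-Fc 7, and 1.98 and 1.92 in BF10 3 and 6, with the 299-base transcript).

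Within each set the treated groups lay below control, which had to follow because every treated value lay below every control value. The differences within the sets are given for their size only. In the higher-sum libraries the log2 difference of Tmsb15a against control was -2.11 in IL-10-Fc, -1.95 in BF10 and -1.29 in aCSF1R (1 treated against 2 control libraries). In the lower-sum libraries it was -2.05, -1.79 and -1.44 (2 treated against 1 control library).

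Among the treated groups the listed values of Tmsb15a were too low to order the groups. The low IL-10-Fc values had led to the choice, and among treated libraries only aCSF1R 8 reached the 1 TPM of the filter. These comparisons are therefore not independent of the choice, and their p-values are given as description only. The IL-10-Fc values as listed lay below those of aCSF1R, an order found in 1.6% of tested genes, but with the 299-base transcript aCSF1R 4 (1.99 reads) and 6 (2.97 reads) lay at or near the limits of the IL-10-Fc libraries at 0. The log2 difference was -0.67 ± 0.23 (SE, limma, adjusted p = 0.818, unadjusted p = 0.0154). BF10 differed from aCSF1R by -0.45 ± 0.23 and from IL-10-Fc by 0.22 ± 0.23 (limma, adjusted p = 1 in both). None of these passed the threshold, and a share of 0.542% of all genes did so in IL-10-Fc against aCSF1R, 0.735% in BF10 against aCSF1R and 0% in BF10 against IL-10-Fc.

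Tmsb15b1 and Tmsb15b2, the pair with nearly the same coding sequence, were lowest in the aCSF1R tumors but passed the threshold in none of the 6 comparisons. Tmsb15b1 was at 2.58, 1.25 and 4.28 TPM in control tumors 4, 5 and 7 and at 0.537, 0.394 and 0.250 TPM in aCSF1R tumors 4, 6 and 8. In IL-10-Fc tumors 2, 4 and 7 it stood at 1.07, 1.05 and 1.16 TPM, and in BF10 tumors 3, 6 and 7 at 2.53, 1.19 and 0.357 TPM. Few reads limit the aCSF1R values (an estimated 4.26, 2.97 and 2.62 reads) and that of BF10 7 (3.02 reads). The aCSF1R values lay below every control and every IL-10-Fc value (orders found in 3.68% and 5.9% of tested genes) and overlapped those of BF10. The IL-10-Fc values lay below every control value, an order found in 1.78% of tested genes. The nearest were 1.16 TPM in IL-10-Fc 7 and 1.25 TPM in control 5. As deposited FPKM these were 0.91 and 0.79, so that the groups overlapped. Against control the log2 difference was -1.33 ± 0.37 in aCSF1R (SE, limma, adjusted p = 0.350), -0.74 ± 0.37 in IL-10-Fc (adjusted p = 0.738) and -0.67 ± 0.37 in BF10 (adjusted p = 0.789). With the set as a term the aCSF1R value was -1.26 (limma, adjusted p = 0.163).

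Tmsb15b2 was at 4.30, 2.99 and 6.05 TPM in control tumors 4, 5 and 7, and at 1.68, 2.21 and 3.86 TPM in IL-10-Fc tumors 2, 4 and 7. In BF10 tumors 3, 6 and 7 it was at 4.02, 3.69 and 2.08 TPM. The aCSF1R tumors were split, with 2.55 TPM in tumor 4 against 0.262 and 0.119 TPM in tumors 6 and 8. With the 450-base transcript, aCSF1R tumors 6 and 8 held an estimated 2.04 and 1.29 reads, so few reads limit these values. Against control the log2 difference was -1.63 ± 0.45 in aCSF1R (SE, limma, adjusted p = 0.344). The IL-10-Fc and BF10 differences were -0.61 ± 0.45 and -0.35 ± 0.45 (limma, adjusted p = 0.738 and 0.789). Leaving out aCSF1R tumor 4, the highest of its group, gave -2.16 for aCSF1R (limma, adjusted p = 0.0452). This was past the threshold, which 77 of 15504 tested genes passed in that setting. Without any other single aCSF1R or control library it did not pass (limma, lowest adjusted p = 0.244, without aCSF1R 8). Because the aCSF1R values left without tumor 4 rest on few reads, nothing is read from that pass. BF10 was above aCSF1R by 1.28 ± 0.45 (limma, adjusted p = 0.665), a difference that was not past the threshold.

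Tmsb15l, the gene that overlaps the other two, was listed at 0 in 8 of the 12 libraries. The 4 values above 0 were 0.2 TPM in control 7, 0.179 TPM in IL-10-Fc 7, and 0.591 and 0.171 TPM in BF10 6 and 7, so it was at 0 in all aCSF1R tumors. Given the sequence shared with its neighbours, no fold change is given for it. The sum of the 4 Tmsb15 genes, which depends less on how reads were split among them, was 11.7, 7.37 and 13.9 TPM in control tumors 4, 5 and 7. It was 2.75, 3.25 and 5.36 TPM in IL-10-Fc 2, 4 and 7, and 3.50, 1.3 and 1.42 TPM in aCSF1R 4, 6 and 8. In BF10 3, 6 and 7 it was 6.98, 5.78 and 2.61 TPM. Every treated sum lay below every control sum, the closest pair being BF10 3 and control 5, but Tmsb15a is part of the sum and was chosen for this direction. As a ratio of group means the sum stood at 0.345 of control in IL-10-Fc, 0.466 in BF10 and 0.189 in aCSF1R, against 0.0147, 0.0641 and 0.186 for Tmsb15a alone.

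Tmsb4x was among the most abundant transcripts of the tumors, ranking 15 to 105 of all genes and holding up to 0.719% of a library's TPM. Its level was 7194, 3237 and 6969 TPM in control tumors 4, 5 and 7 and 3050, 3664 and 4586 TPM in IL-10-Fc tumors 2, 4 and 7. In aCSF1R tumors 4, 6 and 8 it was 1672, 1397 and 3209 TPM, and in BF10 tumors 3, 6 and 7 it was 4224, 5883 and 2791 TPM. Within each of the 4 groups the higher-sum libraries were above the lower-sum ones, and within each set aCSF1R held the lowest values. The order of the group means was control (5800 ± 2222 TPM, SD, n = 3), BF10 (4299 ± 1547), IL-10-Fc (3767 ± 773.4) and aCSF1R (2093 ± 976.3), and no neighbours in this order differed beyond their spread in the comparison of group means alone.

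Against control, Tmsb4x differed by -1.48 ± 0.41 on the log2 scale in aCSF1R (SE, limma, adjusted p = 0.349). This did not pass the threshold. All 3 aCSF1R values lay below all 3 control values, an order found in 3.68% of tested genes. The nearest were 3209 TPM in aCSF1R 8 and 3237 TPM in control 5. As deposited FPKM these were 2957 and 2039, so that the groups overlapped. The library sets were defined from the FPKM sums of these same libraries, and the term was chosen after seeing the data. Adjusted p-values with the term are therefore not independent of that choice. With a term for the library set, the spread within groups shrank and the log2 difference was -1.19 ± 0.18 (limma, adjusted p = 0.00542), past a threshold that 1.93% of all genes passed in that direction. In the same model Tmsb4x was above aCSF1R by 1.07 ± 0.18 in BF10 (limma, adjusted p = 0.00667, 2.77% of genes past it) and by 0.92 ± 0.18 in IL-10-Fc (adjusted p = 0.0209, 2.12% of genes). Without the set term the adjusted p was 0.864 and 1.

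The within-set values of Tmsb4x come from the same libraries as the set-term model. They are no separate check of it and are given for their size only. The log2 difference of aCSF1R against control was -1.14 in the higher-sum libraries (1 against 2) and -1.08 in the lower-sum libraries (2 against 1). In the set-term model the difference of aCSF1R from control and from BF10 stayed past the threshold without each of the 6 libraries in turn, with adjusted p from 0.0143 to 0.0308 and from 0.00542 to 0.0425 (limma). The difference from IL-10-Fc passed without 3 of the 6 and did not pass without IL-10-Fc 2, IL-10-Fc 4 or aCSF1R 6, where the highest adjusted p was 0.118. The differences of BF10 and IL-10-Fc from control, -0.41 ± 0.41 and -0.55 ± 0.41 on the log2 scale (SE, limma, adjusted p = 0.789 and 0.738), and from each other (0.15 ± 0.41, adjusted p = 1) did not pass the threshold.

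**Figure D2:**
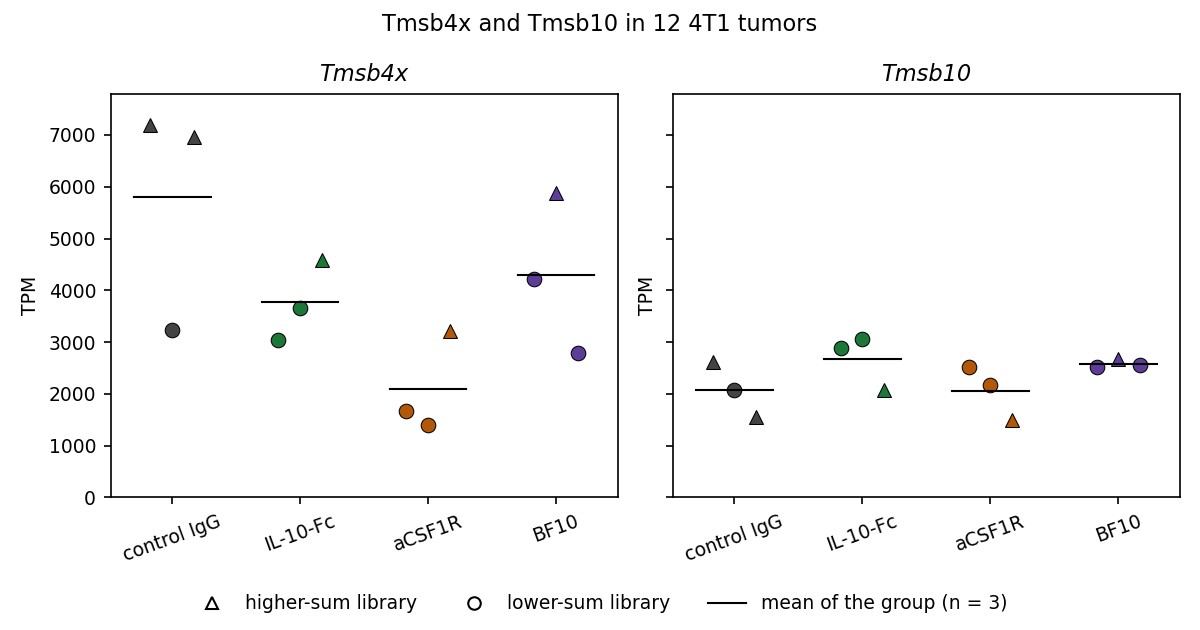
TPM of Tmsb4x and Tmsb10 in each library, by group, with triangles for higher-sum and circles for lower-sum libraries and a line at the mean of the 3 libraries. Tmsb4x is highest in the triangles of every group and lowest in aCSF1R (1397 to 3209 TPM), while Tmsb10 stays between 1500 and 3055 TPM.

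Markers of macrophages, a cell type rich in Tmsb4x, moved with the aCSF1R group. The summed TPM of 10 macrophage markers was 82.4 to 265.6 in aCSF1R, against 1769 to 2262 in control, 1477 to 1684 in IL-10-Fc and 1753 to 1817 in BF10. Of these markers 6 of 10 were lower than in control past the threshold (9 of 10 with the set term), 6 were higher in BF10 and 6 in IL-10-Fc than in aCSF1R (9 and 10 with the set term), and none was at 0 in any library. The pan-leukocyte gene Ptprc was at 15.0 to 16.7 TPM in aCSF1R and at 29.7 to 72.1 TPM in the other groups. Platelet markers summed to 24.1 to 40.3 TPM against 105.3 to 264.4 TPM. That sum was mostly Pf4 (18.3 to 258.2 TPM), which macrophages also express, while Itga2b, the next highest, reached at most 5.41 TPM. Of 3 tested platelet markers, 1 was lower in aCSF1R than in control past the threshold and 2 had a log2 change below 0. The macrophage, leukocyte (Ptprc alone) and platelet lists were the 3 of 13 marker lists that were lower in every aCSF1R tumor than in every other tumor. The part of these cells in the Tmsb4x difference was not tested, and in bulk tumor RNA fewer cells of a type and less RNA per cell cannot be told apart. Neutrophil markers, from another cell type of the blood, summed to 997, 428.9 and 3343 TPM in aCSF1R tumors 4, 6 and 8, and to 717.5 to 2182 TPM in the other tumors except BF10 3 with 16420 TPM. Tumor 8, the higher-sum library of the aCSF1R group, thus had the highest Tmsb4x and neutrophil marker levels of its group and the lowest macrophage marker level. None of the 6 neutrophil markers passed the threshold in any comparison (limma).

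**Figure D3:**
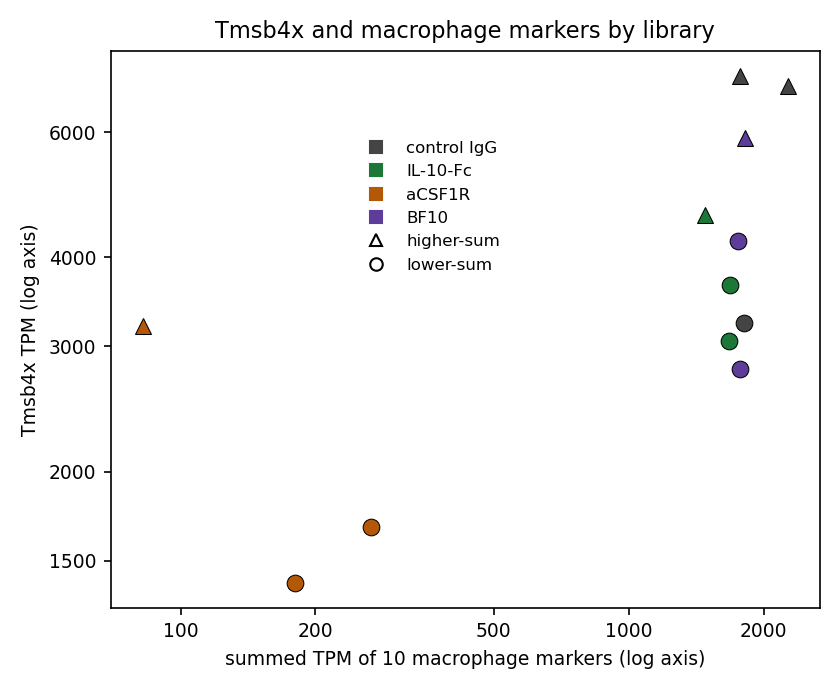
Tmsb4x TPM against the summed TPM of 10 macrophage markers in the 12 libraries, both on log axes, with colors for the groups, triangles for higher-sum and circles for lower-sum libraries. The aCSF1R tumors lie apart at 82.4 to 265.6 TPM of macrophage markers, and among the other tumors Tmsb4x spans 2791 to 7194 TPM at nearly the same marker sum.

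Tmsb10, the other abundant member, ranked 26 to 117 of all genes and did not pass the threshold in any of the 6 comparisons, either from group means or with the set term. Its level was 2609, 2072 and 1554 TPM in control tumors 4, 5 and 7 and 2894, 3055 and 2075 TPM in IL-10-Fc tumors 2, 4 and 7. In aCSF1R tumors 4, 6 and 8 it was 2512, 2176 and 1500 TPM, and in BF10 tumors 3, 6 and 7 it was 2522, 2675 and 2561 TPM. All groups overlapped except BF10 and aCSF1R, whose nearest values were 2522 and 2512 TPM, an order found in 4.33% of tested genes. The group means ran from 2674 ± 525.6 TPM (SD, n = 3) in IL-10-Fc through 2586 ± 79.8 in BF10 and 2078 ± 527.3 in control to 2062 ± 515.6 in aCSF1R, and no neighbours in this order differed beyond their spread. The log2 difference from control was -0.012 ± 0.26 in aCSF1R, 0.35 ± 0.26 in BF10 and 0.38 ± 0.26 in IL-10-Fc (SE, limma, adjusted p = 0.988, 0.789 and 0.738), the last pair being close to the shift of the median gene. With libraries scaled by the median of ratios Tmsb10 lay slightly below control in BF10 (-0.03) and IL-10-Fc (-0.067), so the direction against control depends on the scaling.

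**Figure D4:**
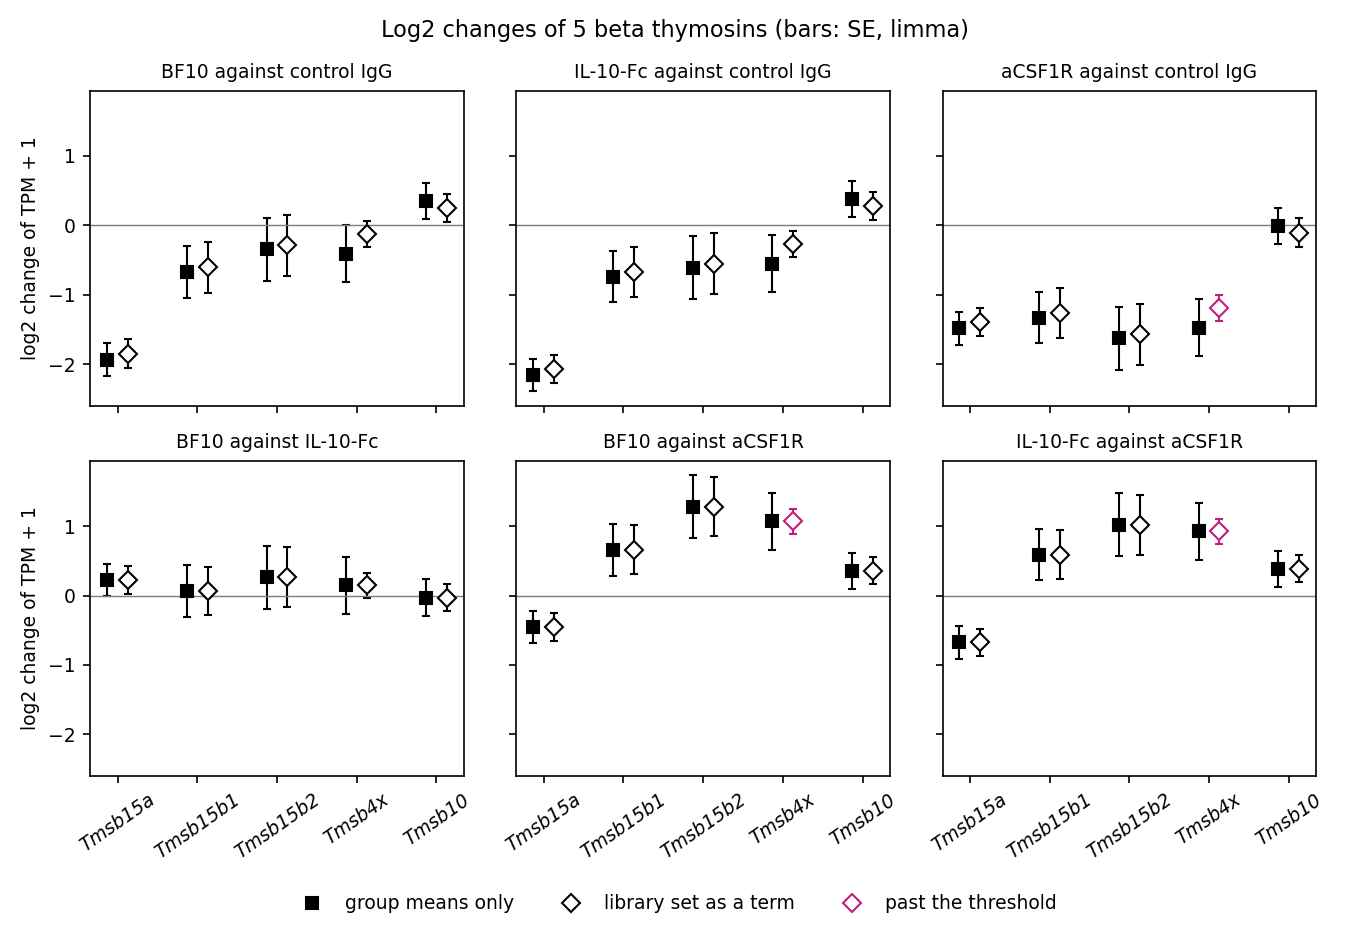
Differences of mean log2(TPM + 1) with SE (limma, 3 tumors a group) of the 5 genes that passed the filter, in 6 comparisons, from group means only (filled squares) and with the library set as a term (open diamonds), in pink where past the threshold. With the set term Tmsb4x is past it in all 3 comparisons that involve aCSF1R, Tmsb15a against control is shown without a test, and Tmsb10 lies between -0.11 and 0.39 in all panels.

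The balance between the main buffers of monomeric actin also differed from library to library. Tmsb10 stood at 0.363, 0.640 and 0.223 of Tmsb4x in control tumors 4, 5 and 7 and at 0.949, 0.834 and 0.452 in IL-10-Fc tumors 2, 4 and 7. It stood at 1.5, 1.56 and 0.467 in aCSF1R tumors 4, 6 and 8 and at 0.597, 0.455 and 0.918 in BF10 tumors 3, 6 and 7. Only aCSF1R tumors 4 and 6 had more Tmsb10 than Tmsb4x, and in each group the higher-sum libraries had the lowest ratios. The mean log2 ratio differed from control by 1.47 in aCSF1R, 0.93 in IL-10-Fc and 0.76 in BF10, with exact two-sided permutation p = 0.2, 0.2 and 0.3 (adjusted p = 0.514 over 12 tests). Between 3 and 3 libraries this test cannot give a p below 0.1. Within the higher-sum libraries these differences were 0.72, 0.67 and 0.68, and within the lower-sum libraries 1.26, 0.47 and 0.21.

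Relative to actin itself, the sum of Tmsb4x and Tmsb10 was 4.61, 1.09 and 3.37 times the sum of Actb and Actg1, the cytoplasmic actins, in control tumors 4, 5 and 7. In IL-10-Fc tumors 2, 4 and 7 it was 1.02, 1.18 and 1.90 times, in aCSF1R tumors 4, 6 and 8 it was 0.775, 0.756 and 2.82 times, and in BF10 tumors 3, 6 and 7 it was 1.00, 2.77 and 1.05 times. Again the higher-sum library or libraries were the highest of each group. The log2 ratio differed from control by -1.12 in aCSF1R, -0.96 in IL-10-Fc and -0.85 in BF10 (exact two-sided permutation p = 0.2, 0.3 and 0.2, adjusted p = 0.514 in each). Within the lower-sum libraries the IL-10-Fc and BF10 differences were 0.0085 and -0.096, and the aCSF1R difference was -0.51.

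**Figure D5:**
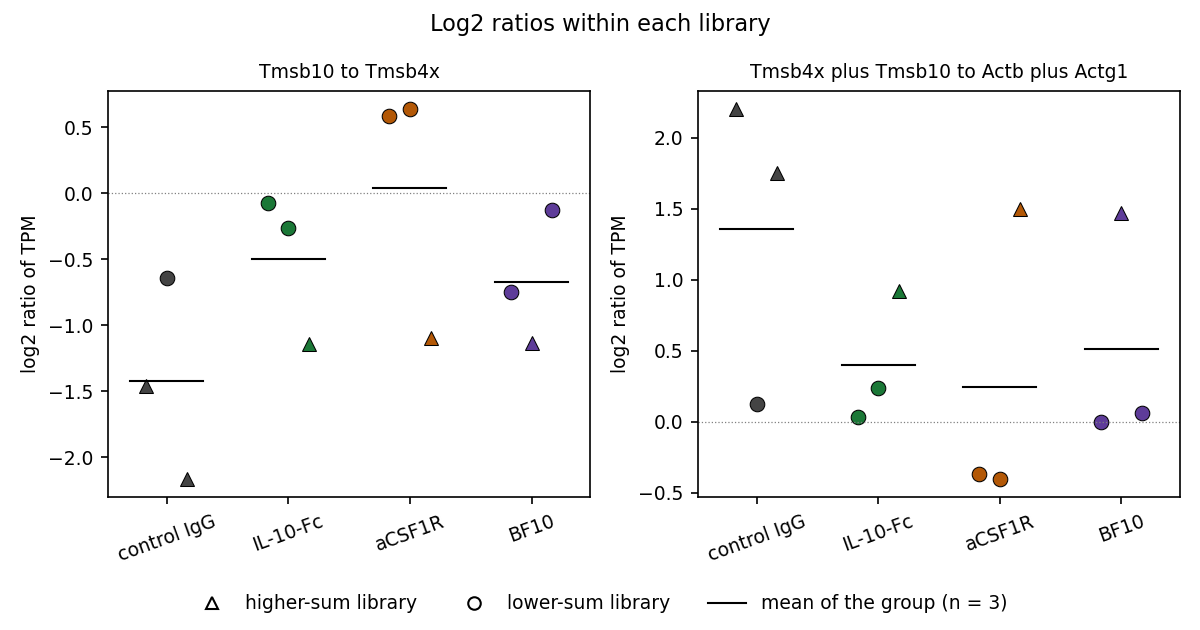
Log2 ratio of Tmsb10 to Tmsb4x (left) and of Tmsb4x plus Tmsb10 to Actb plus Actg1 (right) in each library, by group, with triangles for higher-sum and circles for lower-sum libraries and a line at the mean of the 3 libraries. In every group the triangles are low on the left, from -2.16 to -1.10, and high on the right.

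Whether other genes that bind, nucleate or cap actin followed Tmsb4x cannot be read from the counts below, since few genes of any kind passed. Of 55 genes in 6 lists, 45 were tested, and 0 passed the threshold in each of the 6 comparisons (limma). From 0% to 0.735% of all tested genes passed it, and Tmsb4x itself passed in none of the 6 in this model. At an unadjusted p below 0.05, 42 to 661 of all 15504 genes were counted in these comparisons. The lists were actin isoforms (4 of 6 genes tested), monomer binding proteins such as the profilins and cofilins (11 of 13), filament nucleators (16 of 18), capping and severing proteins (7 of 9), the actin-regulated transcription factor Srf with its partners (3 of 3) and partners or proteases of thymosin beta 4 (4 of 6). In aCSF1R against control 11 of the 45 genes had a log2 change below 0, or 24.4%, beside 26.4% of all tested genes, and the medians of the lists ran from 0.085 to 0.46, beside 0.24 over all genes. In BF10 against control 5 of 45 lay below 0 (11.1%, beside 22.5% of all tested genes) and in IL-10-Fc 4 of 45 (8.9%, beside 20.3%).

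With the set as a term, 1 of the 45 (Gmfg) was lower in aCSF1R than in control, where 1.93% of all tested genes were, and 3 of the 45 were higher in BF10 than in aCSF1R, where 2.77% were. Gmfg, a glia maturation factor of blood cells that acts on branched filaments, was at 10.6 to 18.6 TPM in aCSF1R and 30.7 to 68.3 TPM in control (log2 difference -1.59, limma adjusted p = 0.0495), and at 30.3 to 80.5 TPM in BF10 (1.67 above aCSF1R, adjusted p = 0.0238). Twf2, a twinfilin that binds actin monomers, was 0.66 higher in BF10 than in aCSF1R (limma, adjusted p = 0.0213), at 59.6 to 77.9 against 42.4 to 44.4 TPM. Was, the nucleation promoting factor of blood cells, was 2.05 higher in BF10 than in aCSF1R (limma, adjusted p = 0.00395), at 2.34 to 23.9 against 0.163 to 3.15 TPM. Among the abundant monomer binders, Pfn1 and Cfl1 differed between aCSF1R and control by 0.031 and 0.085 on the log2 scale (limma, adjusted p = 0.977 and 0.923).

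The genes whose levels were most like those of a member are given by Pearson's r of log2(TPM + 1) over the 12 libraries, which share groups and sets. For Tmsb15a they were Klri1 (r = 0.900), Gm6637 (0.884), Gm12778 (0.874), Mir17hg (0.867) and Klra13-ps (0.827), and Klri1 and Gm12778 stayed among the 5 most alike after the mean of the library set was removed, joined by Cox16 (0.928), Rit1 (0.890) and 2010320M18Rik (0.882). Klri1, a receptor gene of natural killer cells, a type for which no marker list was used, was at 1.29 to 1.58 TPM in control and 0.494 to 1.19 TPM in treated tumors, and Gm12778 at 5.39 to 15.3 and 1.41 to 4.61 TPM. For Tmsb4x they were Cd53 (0.970), a tetraspanin of leukocytes, St8sia4 (0.955), 1500011B03Rik (0.954), Svbp (0.95) and Ifitm2 (0.948). With the set removed St8sia4 (0.974) and Svbp (0.968) stayed, beside Tyrobp (0.969), a signaling adaptor of myeloid and natural killer cells, Cd200r1 (0.968) and Kcnk13 (0.966). For Tmsb10 the first was Gm3788 (0.912), one of the genes that share its sequence, followed by Cxcl14 (0.900), Megf11 (0.885), Hikeshi (0.874) and Hsd11b2 (0.868). With the set removed they were Tomm6 (0.943), Cxcl14 (0.895), Gm3788 (0.884), Acy3 (0.879) and Arrdc3 (0.867).

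The members did not resemble one another closely over the 12 libraries. The r of Tmsb15a was 0.55 with Tmsb15b1, 0.29 with Tmsb15b2, 0.43 with Tmsb4x and -0.48 with Tmsb10. Tmsb4x was nearer to Tmsb15b1 (0.77) and Tmsb15b2 (0.70), which were also lowest in aCSF1R. Its r with Tmsb10 was -0.097, or 0.40 with the set removed.

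None of the tested genes next to Tmsb15a on the X chromosome passed the threshold. Within 200 kb of Tmsb15a, 13 other genes are annotated, 7 were above 0 in a library and 3 passed the filter (Armcx5, Gprasp1 and Bhlhb9). The lowest adjusted p of these 3 over the 6 comparisons was 0.738 (limma). Armcx5, which like Gprasp1 starts upstream of Tmsb15a on the opposite strand, differed from control by 0.22 in aCSF1R, 0.088 in IL-10-Fc and 0.13 in BF10 on the log2 scale, and by -0.035, -0.17 and -0.13 with the set term (limma, adjusted p from 0.865 to 0.906 without the term and from 0.942 to 0.9996 with it).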

How the data were processed

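RNA of 12 tumors was extracted with TRIzol, made into stranded poly(A) libraries and sequenced as 75-base reads, aligned to mm10 with the GRCm38.101 annotation per the study's methods. The submitters' processing notes name STAR 2.7.5a, RSEM 1.3.3 and DESeq2 1.28.0, without roles. The authors deposited FPKM values (scaled for transcript length and library size) with 2 decimals, and all 12 columns were matched by name. The 4 comparison tables of the authors (mean, log2 fold change, standard error, statistic, p, adjusted p) were not used.

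FPKM was rescaled to the same sum in every library (TPM). Genes with at least 1 TPM in at least 3 of 12 libraries (15504 of 34194 above 0) were tested on log2(TPM + 1), which understates changes of low genes, with limma 3.58.1 (R 4.3.3, trended eBayes), 4 group means and 8 residual degrees of freedom. Adjusted p-values are Benjamini-Hochberg over all tested genes. No source says that the 3 samples of a group came from separate mice, so p-values measure the spread between these samples. Depth came from low FPKM values of short genes with 1 transcript, as multiples of 1 read. It is an estimate, so no count test was run. Exact permutation tests used scipy 1.17.1. The limma step was tested on simulated data.

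Genes named are the members, the 5 most alike by r, neighbours of Tmsb15a within 200 kb, and listed genes past the threshold. Neighbours of the other members are not reported here. In addition, 13 lists of cell type markers and 6 of actin regulators were used. Members, lists, sets and alternatives were chosen with earlier results of these data known. Alternatives were a pseudocount of 0.1, unscaled FPKM, median of ratios scaling, no filter, the library set as a term, a replicate block and leaving out each library. Sequences and coordinates came from GENCODE vM21 on GRCm38, an earlier annotation release than the authors' of the same build.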

Additional observations from a re-analysis of the deposited data

How the results depend on the processing

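Of the alternatives other than leaving out a library, most changed neither direction nor side of the threshold for a member. With a pseudocount of 0.1 the log2 difference of Tmsb15a from control was -4.78 in IL-10-Fc, -3.78 in BF10 and -2.33 in aCSF1R, and Tmsb15b1 in BF10 against IL-10-Fc was -0.0401. As a ratio of group means to control, the sum of the Tmsb15 genes gave 0.345 in IL-10-Fc and 0.466 in BF10. With the library set as a term Tmsb4x passed the threshold, at -1.19 in aCSF1R against control and 1.07 and 0.924 in BF10 and IL-10-Fc against aCSF1R. With median of ratios scaling Tmsb10 turned to -0.0665 in IL-10-Fc and -0.0295 in BF10 against control and to 0.0369 in BF10 against IL-10-Fc. The cause of these shifts was not tested.

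Deviations of same-numbered libraries correlated at -0.663 to 0.417, and the correlation was positive only where both libraries were of the same set. This check therefore cannot tell whether replicate numbers pair the samples. With the replicate number as a block, which left 2 residual degrees of freedom, Tmsb15a differed from control by -2.26 in BF10 and -1.91 in aCSF1R, and in BF10 against IL-10-Fc Tmsb15a was -0.0422, Tmsb15b1 -0.447, Tmsb4x -0.182 and Tmsb10 0.236. Tmsb10 in aCSF1R against control was 0.107 under the block. The block gave 1, 0 and 0 genes past the threshold in BF10, IL-10-Fc and aCSF1R against control and 1 gene in each other comparison.

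From group means the counts over all genes were 0, 1, 88, 0, 114 and 84 (BF10, IL-10-Fc and aCSF1R against control, BF10 against IL-10-Fc, BF10 and IL-10-Fc against aCSF1R). The set term gave 1, 4, 312, 0, 437 and 330. In IL-10-Fc against control the count was 0 with a pseudocount of 0.1 or unscaled FPKM and 2 without the filter. Median of ratios scaling gave 136 in aCSF1R against control and 1 in BF10 against IL-10-Fc, as did no filter in the latter. Leaving out each library of the compared groups in turn gave 0 in BF10 against control. In the order of the other comparisons it gave 0 to 1, 55 to 85, 0 to 1, 54 to 106 and 24 to 68.

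Without each library in turn Tmsb15b2 in aCSF1R against control ran from -2.16 to -1.32 and Tmsb10 from -0.205 to 0.202. In BF10 against IL-10-Fc, Tmsb10 ran from -0.202 to 0.0772, Tmsb15b1 from -0.278 to 0.412 and Tmsb4x from -0.114 to 0.424. With the set term, an alternative chosen after seeing the data, Tmsb4x in IL-10-Fc against aCSF1R ran from 0.782 to 1.10 without each library of these groups.

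The log2 ratio of Tmsb10 to Tmsb4x in BF10 against IL-10-Fc was 0.00759 within the higher-sum libraries and -0.499 to 0.0601 without each library. The ratio to actin was 0.00851 in IL-10-Fc against control within the lower-sum libraries. In BF10 against IL-10-Fc it was -0.177 by medians, -0.104 within the lower-sum libraries and -0.367 to 0.375 without each library. Against aCSF1R it was -0.0263 in BF10 and -0.573 in IL-10-Fc within the higher-sum libraries, and -0.21 to 0.896 and -0.166 to 0.783 without each library. Below about 1 TPM few reads limit every value. This holds for Tmsb15l, for Tmsb15a in treated tumors, for Tmsb15b1 in the aCSF1R tumors and BF10 7, and for Tmsb15b2 in aCSF1R 6 and 8.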
